A study of Mus musculus with 6 samples.

Results

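Brain endothelial and barrier genes were examined as a set of 36 genes, taken by symbol from knowledge of the vessels of the brain. The set was chosen with earlier results of these data known. All 36 were found among the 24411 genes with a count in each library. They were ordered by what their products do: 8 junction and adhesion genes (Cldn5, Ocln, Esam, Cdh5, Pecam1, Icam2, Podxl, Emcn), 11 genes of vessel receptors and signalling (Flt1, Kdr, Tek, Tie1, Eng, Ptprb, Robo4, Cd93, Nos3, Egfl7, Vwf), 9 of transport (Slc2a1, Slco1a4, Slco1c1, Abcb1a, Mfsd2a, Slc16a1, Slc7a5, Bsg, Pltp), 5 of transcription factors (Erg, Sox17, Sox18, Foxq1, Lef1) and 3 of surface markers (Ly6c1, Ly6a, Itm2a).

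Endothelial cells line the vessels of the brain and form the blood-brain barrier. Tight junctions built from claudin-5 and occludin seal the gaps between them, receptors for VEGF, angiopoietins and Wnt ligands keep up their number and their barrier state, and carriers in their membrane decide what passes from blood to brain. Pericytes sit on the outside of the same capillaries and make NG2 (Cspg4), which precursors of oligodendrocytes make as well, whereas endothelial cells are classically NG2-negative.

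RNA was sequenced from 6 libraries of whole brain homogenate with RiboTag, a mouse line whose ribosomal protein Rpl22 carries an HA tag once Cre has acted on the allele; tagged ribosomes and their RNA are then pulled down with an HA antibody (IP). The groups were icKO IP (2 libraries), icKO input (1), control IP (2) and control input (1), where input is homogenate RNA kept before the pull-down. The icKO mice were NG2CreERTM;Ank3F/F;Rpl22HA/+ (inducible conditional knockout of Ank3, the gene of ankyrin-G) and the control mice NG2CreERTM;Rpl22HA/+. The Cre driver and the tagged Rpl22 allele were thus shared by all groups, as was tamoxifen (100 mg/kg per day for 5 days at 8 weeks of age, brains taken 1 month later after perfusion), and each library came from a pool of 3 animals. The NG2 driver acts in precursors and pericytes, and the labels name the recombined cells as oligodendrocytes only. With 1 input library per genotype, differences between the inputs have no replicate check.

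Library totals ran from 18968806 to 23930812 counts, so that 3 counts, the floor used here, corresponded to 0.125 to 0.158 CPM (counts scaled to a library size of 1000000). Gene levels below are CPM with TMM factors (trimmed mean of M-values, a scaling of libraries) from all 6 libraries. Ank3 was read at 1163 and 1167 CPM in icKO IP, 347 CPM in icKO input, 1389 and 1359 CPM in control IP and 381 CPM in control input, and reads outside the floxed part count in these values. Defining genes of precursors (10 of 10 higher in IP than input, median log2 4.30), mature oligodendrocytes (10 of 10, 2.63) and pericytes (12 of 12, 3.44) rose in the pull-down. Those of neurons (13 of 14 lower, -1.99), astrocytes (12 of 12, -1.90) and microglia (12 of 12, -2.36) fell. The precursor list shares Cspg4 with the pericyte list and Pdgfra with the fibroblast list used below, so these lists are not fully separate.

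In the input, where vessels are present in proportion to the whole brain, every endothelial member was read in every library. Per length (CPM per kilobase of summed exons), the highest level was that of Bsg, the basigin gene, whose product chaperones monocarboxylate carriers and is made by many cell types: 219 in icKO input and 236 in control input. Next came the glucose carrier gene Slc2a1 (18.3 and 22.6), the large neutral amino acid carrier gene Slc7a5 (10.8 and 13.1), Pltp, which encodes a phospholipid transfer protein (12.7 and 11.1), and Itm2a, a membrane protein gene (9.25 and 14.1). Cldn5 stood at 6.01 CPM per kilobase in icKO input and 9.66 in control input. The lowest levels per length were those of the endothelial sialomucin gene Emcn (0.306 and 0.445), the forkhead factor gene Foxq1 (0.492 and 0.413), the guidance receptor gene Robo4 (0.431 and 0.531) and the HMG-box factor gene Sox17 (0.367 and 0.609). Levels per length thus differed widely within the set. In homogenate RNA fewer cells of a type and less RNA per cell cannot be told apart.

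Against input, most endothelial genes were lower in the pull-down. Over both genotypes 25 of 36 fell and 4 rose in the quasi-likelihood test of edgeR (adjusted p under 0.05, Benjamini-Hochberg over 15936 genes), with a median log2 difference of -0.85. Of all genes tested 34.2% were lower and 34.2% higher, 68.4% in all, with a median of 0.016. Since the members were chosen with earlier results known, their share describes the set and is no independent test. The falling members took in 6 of 8 junction and adhesion genes, all 5 transcription factor genes and all 3 surface marker genes, but 5 of 9 transport genes and 6 of 11 receptor and signalling genes. Leaving out the control input leaves icKO alone to set the difference, and leaving out the icKO input leaves control alone. Those fits in effect repeat the comparisons within each genotype given below and are no separate check.

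Among junction genes, Cldn5, which encodes the main claudin of the barrier (ENSMUSG00000041378.2, chromosome 16, 18776847 to 18778262, plus strand, mm10), was at 2.04 and 1.49 CPM in icKO IP against 8.51 CPM in icKO input, and at 2.43 and 2.23 CPM in control IP against 13.7 CPM in control input. All 4 IP libraries lay below both inputs, a log2 difference over both genotypes of -2.42 ± 0.17 (SE) with adjusted p = 8.42e-07. Cdh5, the gene of VE-cadherin of the adherens junction, followed with 3.32 and 3.43 CPM in icKO IP and 10.2 CPM in icKO input, and 4.10 and 3.72 CPM in control IP and 14.6 CPM in control input (log2 -1.76). Pecam1, an adhesion molecule of the cell border, had 2.73 and 2.49 CPM in icKO IP and 7.78 CPM in icKO input, against 3.87 and 3.51 CPM in control IP and 13.5 CPM in control input (log2 -1.74). For these 3 genes the pull-down retained well under the input level in both genotypes. Podxl, a sialomucin of the luminal surface (-1.96), and Ocln, the occludin gene (-1.30) fell as well. Icam2, an adhesion molecule for leukocytes, was the gene with the fewest counts, 4 and 8 in icKO IP, 17 in icKO input, 8 and 14 in control IP and 27 in control input. Its log2 difference of -1.33 passed over both genotypes (adjusted p = 0.0245 in edgeR's test) and in neither genotype alone. Its call was also lost without control IP replicate 1 or icKO IP replicate 1.

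Surface markers and transcription factors of endothelium were the most depleted groups by their medians (-2.49 and -1.88). Ly6a, the Sca-1 antigen gene, was at 0.482 and 0.663 CPM in icKO IP and 2.92 CPM in icKO input, and at 0.668 and 0.703 CPM in control IP and 6.0 CPM in control input. Its log2 difference of -2.79 ± 0.29 (SE) was the lowest of the 36 members, and the IP values rest on 9 to 17 counts per library. Ly6c1, a related surface antigen gene of brain capillaries, was at -2.49 and Itm2a at -1.54. The ETS factor gene Erg, which keeps endothelial identity, had 0.804 and 0.442 CPM in icKO IP and 3.11 CPM in icKO input, against 0.716 and 0.496 CPM in control IP and 3.59 CPM in control input (log2 -2.44). Sox18 (-2.03), Foxq1 (-1.88), Lef1, a nuclear partner of beta-catenin in Wnt signalling (-0.85), and Sox17 (-0.77) fell as well. For Sox17 the adjusted p was 0.0353 in edgeR's test, and it lay between 0.0511 and 0.288 without the control input, either control IP or icKO IP replicate 2.

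Receptor and signalling genes were less uniform. Tek, the Tie2 receptor of angiopoietins (log2 -1.45), Cd93, a lectin-like receptor (-1.66), and Egfl7, a secreted vessel factor (-0.86), fell, as did the VEGF receptors Kdr (-0.60) and Flt1 (-0.57) and Vwf, the gene of von Willebrand factor (-0.56). Vwf and Kdr kept no call without the control input, where icKO alone sets the difference (log2 -0.065 and -0.39). The orphan receptor gene Tie1, the phosphatase gene Ptprb, Robo4 and the endothelial nitric oxide synthase gene Nos3 did not pass, with log2 differences of -0.20, -0.13, -0.036 and -0.25. Eng, the TGF-beta co-receptor endoglin, went the other way: 15.0 and 16.1 CPM in icKO IP and 12.3 CPM in icKO input, and 25.7 and 24.9 CPM in control IP and 16.5 CPM in control input. In each genotype both IP values of Eng lay above the input, a log2 difference of 0.49 ± 0.11 (SE) with adjusted p = 0.00242.

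Transporter genes spread most widely. Abcb1a, which encodes P-glycoprotein of the barrier (-1.46), Pltp (-1.59), Bsg (-1.23), Slc2a1 (-0.40) and Slc7a5 (-0.29) fell. Slco1a4 (-0.24, adjusted p = 0.176) and Slco1c1 (-0.32, adjusted p = 0.116), both organic anion carriers and the second a thyroxine carrier that astrocytes make too, did not pass over both genotypes. Mfsd2a, the carrier of lysophosphatidylcholine with docosahexaenoic acid (ENSMUSG00000028655.11, chromosome 4, 122946850 to 122961188, minus strand, mm10), had 70.5 and 73.1 CPM in icKO IP against 13.4 CPM in icKO input, and 100.5 and 102 CPM in control IP against 9.90 CPM in control input. It was the member furthest above input, by a log2 of 2.87 ± 0.18 (SE) over both genotypes (adjusted p = 3.26e-07), and no IP value came near an input value. Slc16a1, the monocarboxylate carrier MCT1 that oligodendrocytes also make, was higher in IP as well: 36.2 and 39.5 CPM in icKO IP and 24.5 CPM in icKO input, 46.2 and 47.0 CPM in control IP and 27.6 CPM in control input (log2 0.69). The fourth member above input was Esam, a junctional adhesion gene, with 10.3 and 11.1 CPM in icKO IP and 4.18 CPM in icKO input, and 14.1 and 13.7 CPM in control IP and 5.91 CPM in control input (log2 1.29 ± 0.13 (SE)). Emcn stood at 0.67 with adjusted p = 0.0509; without icKO IP replicate 2 it passed at 0.81 (adjusted p = 0.0214).

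**Figure D1:**
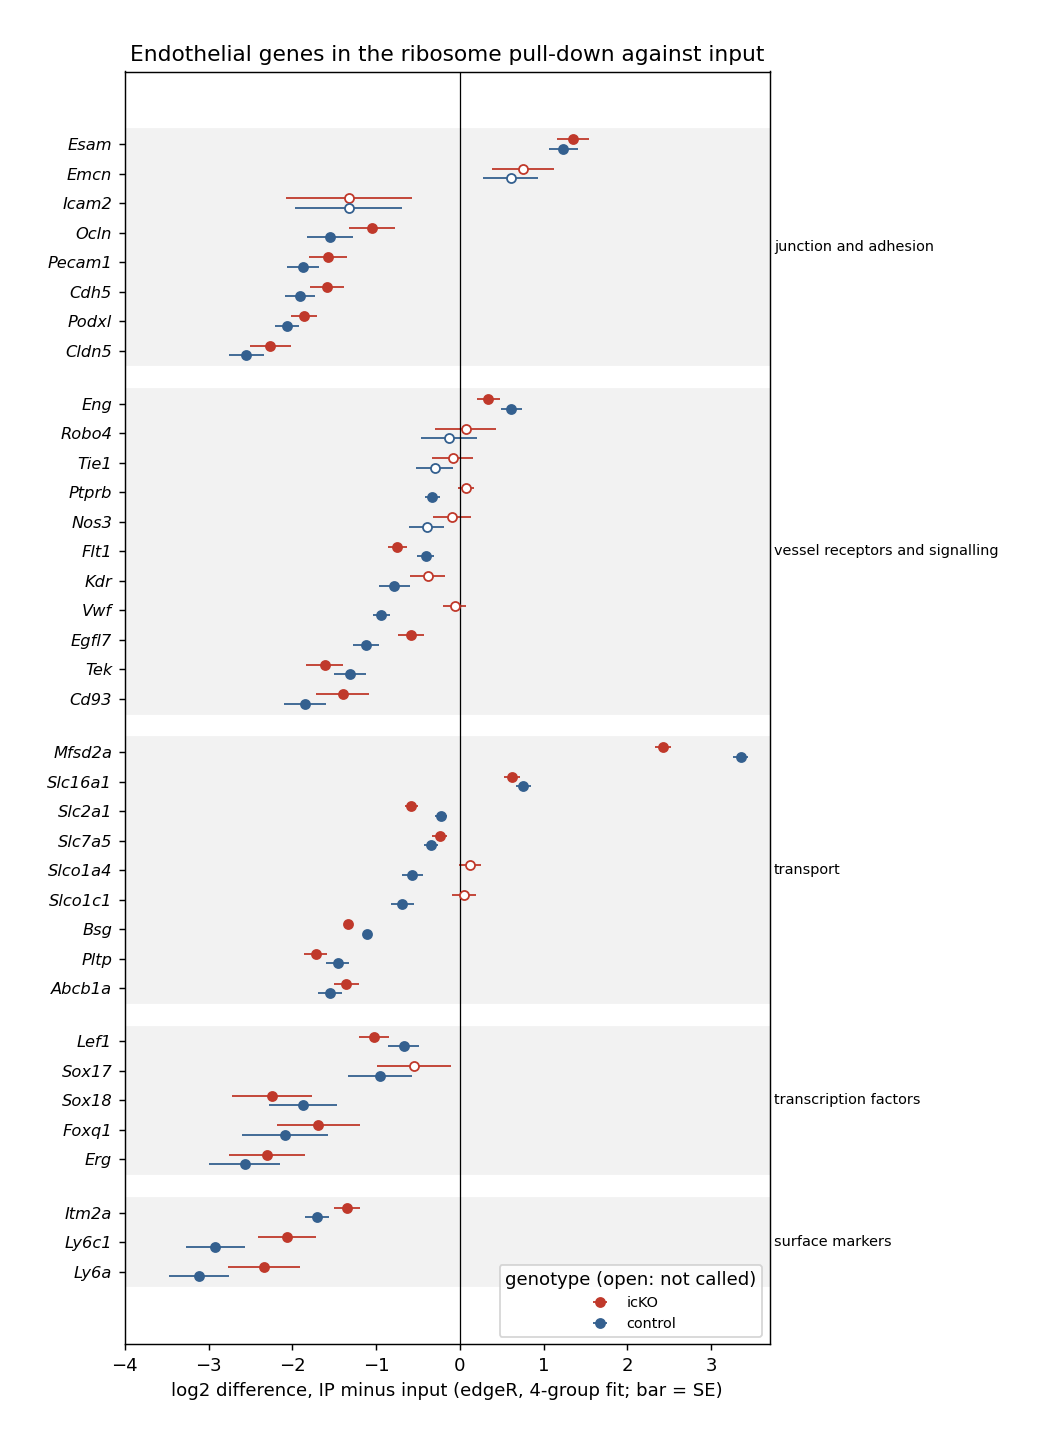
Log2 difference between IP and input for the 36 members, with icKO above control in each row; bars are standard errors of the 4-group fit and open points did not pass an adjusted p of 0.05. Most points lie left of 0, with Mfsd2a, Esam, Slc16a1 and Eng to the right in both genotypes.

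Promoter sequences were set beside these results to show the DNA upstream of members that stood above input (Mfsd2a, Eng) and of members far below it (Cldn5, Itm2a). RefSeq start sites (GRCm38.p6) were at hand for 21 of the 36 members, with 30 starts. Each line gives the 250 bases before the start, read 5′ to 3′ on the strand of the gene. Capitals mark matches on either strand to AGGAAG, a core bound by ETS factors such as Erg, to AACAAT, bound by SOX factors, to CTTTGA, bound by TCF/LEF factors, and to GTAAACA, bound by FOX factors. The 4 words do not contain one another.
Mfsd2a (chr4:122961189-122961438, minus strand): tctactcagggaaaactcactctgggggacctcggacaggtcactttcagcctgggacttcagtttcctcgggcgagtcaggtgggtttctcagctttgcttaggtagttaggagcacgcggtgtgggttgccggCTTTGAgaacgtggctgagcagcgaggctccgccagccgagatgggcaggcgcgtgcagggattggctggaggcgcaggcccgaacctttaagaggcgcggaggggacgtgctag
Eng (chr2:32646345-32646594, plus strand): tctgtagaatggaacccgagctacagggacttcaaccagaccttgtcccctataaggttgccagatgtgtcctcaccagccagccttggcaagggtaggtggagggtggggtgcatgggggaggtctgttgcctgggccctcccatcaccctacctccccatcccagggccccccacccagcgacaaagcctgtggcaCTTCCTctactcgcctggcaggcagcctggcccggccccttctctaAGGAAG
Cldn5 (chr16:18776597-18776846, plus strand): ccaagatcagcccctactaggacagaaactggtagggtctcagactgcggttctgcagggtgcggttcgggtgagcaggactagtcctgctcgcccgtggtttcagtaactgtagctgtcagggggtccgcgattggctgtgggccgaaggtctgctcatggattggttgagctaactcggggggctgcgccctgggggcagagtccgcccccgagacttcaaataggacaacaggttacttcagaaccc
Itm2a (chrX:107403361-107403610, minus strand): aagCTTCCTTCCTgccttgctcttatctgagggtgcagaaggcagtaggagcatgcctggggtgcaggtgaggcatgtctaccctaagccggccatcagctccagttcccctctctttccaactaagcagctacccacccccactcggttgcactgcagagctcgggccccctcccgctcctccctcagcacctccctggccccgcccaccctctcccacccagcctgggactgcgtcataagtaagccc
In these windows Eng and Itm2a each held 2 matches to the ETS core, which overlap in Itm2a, Mfsd2a 1 match to the TCF/LEF core, and Cldn5 none to any of the 4 cores. Over the set, 13 of 21 members had the ETS core before at least 1 start, 61.9% against 32.3% of all 27025 genes with such sequence; counted by start, it was in 46.7% of the members' windows and 29.5% of all windows of that length. The SOX core was found in 4 of 21 members (10.9% of all genes), the TCF/LEF core in 5 (15.8%) and the FOX core in 1, Abcb1a (3.54%). The only Abcb1a window at hand (chr5:8566841-8567090) lies far upstream of the GENCODE start of that gene at 8660077. Whether that start is used in brain was not tested. Matches occurred both in genes above input and in genes below it.

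The depletion was then compared between the genotypes. Within icKO, 21 of 36 members were lower in IP than in input and 4 higher (median log2 -0.88), where 34.8% of all genes were lower and 34.7% higher, 69.4% in all. Within control, 27 members were lower and 4 higher (median -1.03), where 33.9% and 34.4% of all genes were, 68.3% in all. Each genotype has 1 input, which the 4-group fit takes to vary like the IP pairs. The difference between the depletions, which equals the genotype change in IP minus that in input, passed for 7 of 36 members (19.4%), against 23.6% of all genes. Of these, 4 were higher and 3 lower, where 9.67% and 13.9% of all genes were. With library totals in place of TMM, 3 were higher and 3 lower, and over all genes 1153 were higher and 2965 lower (1541 and 2222 with TMM).

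Among the 7, Vwf had the largest positive difference. It was at 13.5 and 12.8 CPM in icKO IP and 13.7 CPM in icKO input, a log2 of -0.061, and at 25.1 and 22.8 CPM in control IP and 45.8 CPM in control input, a log2 of -0.94. In icKO the IP values lay at or just below the input value, while in control both IP values lay far below it. The difference was 0.87 ± 0.17 (SE) with adjusted p = 2.17e-04 in edgeR's test. Slco1c1 (0.74 ± 0.20 (SE), adjusted p = 0.00672) and Slco1a4 (0.69 ± 0.18 (SE), adjusted p = 0.00502) had the same form: below input in control (log2 -0.69 and -0.57) and at 0.053 and 0.12 in icKO, where neither passed. Ptprb was at 0.074 in icKO and -0.33 in control, a difference of 0.40 ± 0.13 (SE) (adjusted p = 0.0271) that did not pass without control IP replicate 2 (adjusted p = 0.111).

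In the other direction, Mfsd2a stood 2.42 above input in icKO and 3.35 in control (log2), a difference of -0.93 ± 0.15 (SE) with adjusted p = 2.08e-05. Slc2a1 (-0.58 in icKO and -0.23 in control) and Bsg (-1.34 and -1.11) were further below input in icKO, with differences of -0.35 and -0.23 and adjusted p of 0.0137 and 0.00204. Without icKO IP replicate 1 Slc2a1 did not pass (adjusted p = 0.0532), and Egfl7 did at 0.69 (adjusted p = 0.0198; 0.54 with all libraries). For Ly6c1 the difference passed at 1.97 without control IP replicate 2 (adjusted p = 0.00997) but not with all libraries (0.86, adjusted p = 0.254). The 2 control IP libraries held 8 and 30 counts of that gene.

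Between the inputs, most endothelial genes were lower in icKO. The log2 ratio of icKO to control input was below 0 for 31 of 36 members, against 46.8% of all genes, with a median of -0.30 where the median over all 15936 genes was 0.014. Past a log2 ratio of 0.32, used as the fold limit here, 16 members were lower (44.4%) and 2 higher, where 10.5% of all genes were lower and 11.1% higher. For 20 members the 95% interval of the ratio, which covers counting error only, lay wholly below 1, and for 3 wholly above it (12.8% and 16.6% of all genes). The 36 genes together took 17872 counts, 0.0897% of icKO input, and 22651 counts, 0.107% of control input. The 95% Wilson intervals, which cover counting error only, were 0.0884% to 0.0910% and 0.106% to 0.109%. Transport genes, with the widely made Bsg among them, held most of this: 625 of 869 CPM in icKO input and 686 of 1029 CPM in control input. Summed CPM in icKO input was 91.2% of control input for transport genes and 74.6% for junction genes. It was 66.4% for receptor genes, 66.7% for surface markers and 108% for transcription factors. Such sums weigh the genes with the highest levels most. For transcription factors the median log2 ratio was -0.20, with 3 of 5 below 0. For receptor genes it was -0.35, with 11 of 11 below 0. Without Vwf the members summed to 87.0% of control input, against 84.4% with it. The inputs, 1 library each, were not tested against each other. The members' shares describe a set chosen with earlier results known.

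The genes with the lowest ratios were vessel surface and signalling genes. Vwf (ENSMUSG00000001930.17, chromosome 6, 125546774 to 125686679, plus strand, mm10), made by endothelium and by platelet precursors and stored for clotting, was at 13.7 CPM in icKO input and 45.8 CPM in control input, a ratio of 0.299 (95% interval 0.261 to 0.342). Cd93 was at 3.74 CPM in icKO input and 8.27 CPM in control input (0.453 (95% interval 0.342 to 0.594)), and Ly6a at 2.92 CPM in icKO input and 6.0 CPM in control input (0.486 (95% interval 0.352 to 0.665)). The intervals of all 3 lay far below 1. Of junction genes, Pecam1 had 7.78 CPM in icKO input and 13.5 CPM in control input (0.577 (95% interval 0.473 to 0.701)). Cldn5 had 8.51 CPM in icKO input and 13.7 CPM in control input (0.622 (95% interval 0.513 to 0.752)). Cdh5 (0.695), Esam (0.708), Emcn (0.687) and Icam2 (0.674) were past the fold limit too, the last 2 with intervals that included 1, while Podxl (0.881) and Ocln (1.01) were not. Among receptors, Kdr (0.610 (95% interval 0.497 to 0.746)) was lower than Flt1 (0.817 (95% interval 0.730 to 0.915)), both below 1. Tie1 (0.696), Eng (0.743) and Ptprb (0.786) were past it as well, while Tek (0.869), Robo4 (0.811), Nos3 (0.842) and Egfl7 (0.880) were not and had intervals that included 1.

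Most carriers of the barrier lay nearer to 1. Of 9 transport genes only Slco1a4 was lower past the fold limit, with 16.3 CPM in icKO input and 20.9 CPM in control input (0.783 (95% interval 0.679 to 0.904)). Slc2a1 (0.810), Slc7a5 (0.821), Abcb1a (0.839), Slc16a1 (0.889), Slco1c1 (0.891) and Bsg (0.928) lay between 0.8 and 1. Mfsd2a was higher, at 13.4 CPM in icKO input and 9.90 CPM in control input (1.35 (95% interval 1.13 to 1.62)), as was Pltp (1.14 (95% interval 1.02 to 1.28)). Of the remaining genes, Itm2a (0.656 (95% interval 0.570 to 0.753)) and Sox17 (0.602 (95% interval 0.389 to 0.920)) were lower and Lef1 (1.41 (95% interval 1.17 to 1.72)) was higher. Ly6c1 (0.879), Erg (0.867), Sox18 (0.799) and Foxq1 (1.19) had intervals that included 1.

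**Figure D2:**
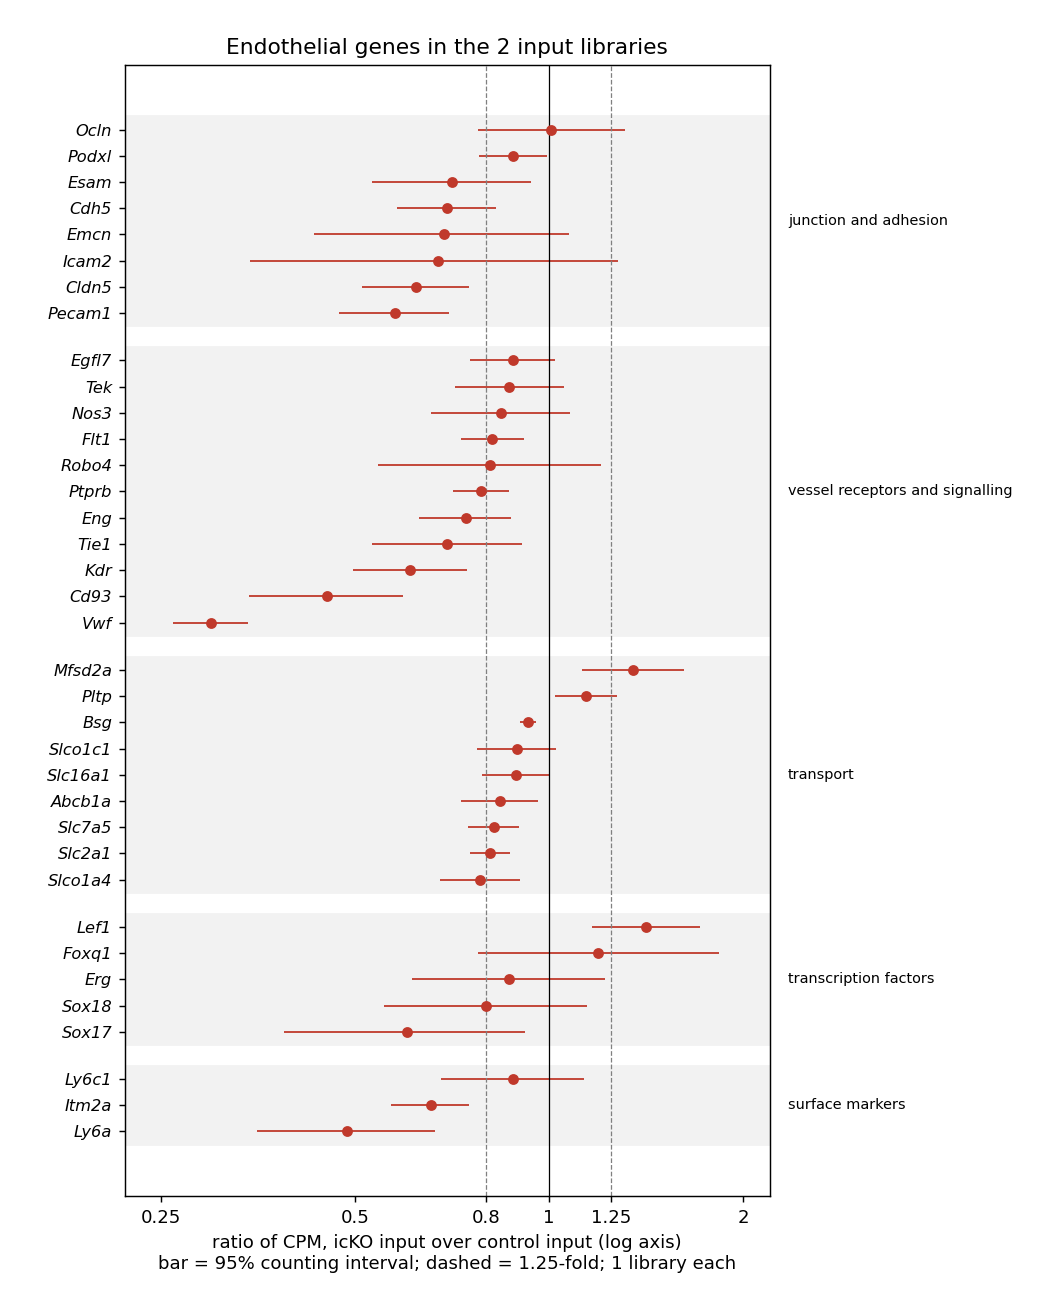
Ratio of CPM in icKO input to control input for the 36 members on a log axis, by role; bars are 95% counting intervals and dashed lines mark a log2 ratio of 0.32 in either direction. Vwf lies furthest left at 0.299, and Lef1 and Mfsd2a are the 2 genes beyond the right dashed line. Ratios are drawn without the prior count of 2 used for calls, so Sox18 lies just past the left line without a call.

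Other cell types of the same inputs were set beside these ratios. The median log2 ratio was 0.080 for 12 pericyte genes, 0.012 for 10 smooth muscle genes, 0.11 for 12 astrocyte genes, 0.040 for 14 neuron genes and -0.063 for 12 microglia genes. It was 0.17 for 10 precursor genes and 0.019 for 10 genes of mature oligodendrocytes. The genes of choroid plexus and ependyma lay on the other side of 0 from the endothelial set, with a median of 0.35 over 9 genes, 5 higher and 0 lower past the fold limit, and 5 intervals above 1. Those of fibroblasts had a median of 0.18 over 9 genes, 3 higher and 1 lower past the limit. Past the same limit 3 pericyte genes were lower and 2 higher, 3 smooth muscle genes lower and 2 higher, and 0 of the neuron, astrocyte and microglia genes were lower. A blood marker moved with the endothelial genes: Alas2, the gene of a heme synthesis enzyme of red cell precursors, was at 7.58 CPM in icKO input and 19.7 CPM in control input, and at 2.04 and 2.16 CPM in icKO IP and 4.06 and 4.05 CPM in control IP. The 4 globin genes on that list, which have near-identical copies, were listed at 0 in every library, and the part of blood and of these other cell types in the endothelial ratios was not tested.

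Between the pull-downs, 12 of 35 endothelial genes (34.3%) were called, against 47.2% of all genes. Icam2 was left out for low counts, and of the 35 members tested over the 4 IP libraries 9 were lower in icKO IP (25.7%) and 3 higher (8.57%), where 25.2% of 15069 genes were lower and 22.1% higher in the same test. The members' median was -0.26 (log2) against 0.0033 over all genes, and -0.11 with an offset for transcript length. With library totals in place of TMM, 12 members were lower and 2 higher, and over all genes 4979 were lower and 2409 higher (3793 and 3326 with TMM). The 36 genes summed to 552 and 563 CPM in icKO IP, 869 CPM in icKO input, 694 and 693 CPM in control IP and 1029 CPM in control input. Transport genes made up 397 and 398 CPM of these sums in icKO IP and 494 and 500 CPM in control IP. Of 12 pericyte genes 11 were lower in icKO IP and 1 higher (median -0.86). The 1 higher was Cspg4 (log2 0.085), which the precursor list shares. The pericyte genes summed to 1979 and 2034 CPM in icKO IP and 149 CPM in icKO input. In control the sums were 2863 and 2895 CPM in IP and 149 CPM in input, with none of these genes at 0. Smooth muscle genes were lower in 9 of 10 cases (median -0.89). Of neuron genes 8 of 14 were higher and 1 lower (median 0.14), and of astrocyte genes 7 of 12 higher and 1 lower (0.24). The part of these cell types in the values of single members was not tested.

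Vwf fell in the icKO IP and was lower in the icKO input too; it had 13.5 and 12.8 CPM in icKO IP and 25.1 and 22.8 CPM in control IP (log2 -0.86 ± 0.10 (SE), adjusted p = 2.79e-08). Eng fell by a like amount, with 15.5 ± 0.760 CPM in icKO IP and 25.3 ± 0.528 CPM in control IP (SD, n = 2 each; log2 -0.70 ± 0.098 (SE), adjusted p = 4.18e-07). Of the VEGF receptors Flt1 fell, to 15.1 and 16.5 CPM in icKO IP against 24.5 and 24.2 CPM in control IP (log2 -0.62 ± 0.099 (SE)), and Kdr was at -0.31 with adjusted p = 0.152, with 4.66 and 6.91 CPM in icKO IP and 7.45 and 6.95 CPM in control IP. Kdr passed at -0.62 without icKO IP replicate 2 (adjusted p = 0.0153), so 1 library decided its call. Slc2a1 fell to 40.5 and 45.6 CPM in icKO IP, against 66.1 and 69.2 CPM in control IP (log2 -0.65 ± 0.064 (SE), adjusted p = 3.28e-10). For Vwf, Eng, Flt1 and Slc2a1 both control values were the higher, which adds nothing to calls already made. How many of all genes share that order was not counted.

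Both carriers that stood above input fell in icKO IP. Mfsd2a had 71.8 ± 1.82 CPM in icKO IP and 101 ± 1.11 CPM in control IP (SD, n = 2 each; log2 -0.49 ± 0.049 (SE), adjusted p = 5.04e-10), while its ratio between the inputs was 1.35. Slc16a1 had 36.2 and 39.5 CPM in icKO IP and 46.2 and 47.0 CPM in control IP (log2 -0.30 ± 0.069 (SE)). Its partner Bsg had 158 and 157 CPM in icKO IP and 197 and 201 CPM in control IP (log2 -0.33 ± 0.036 (SE)), so that all of these values were lower in icKO. Esam (-0.38, adjusted p = 0.0116) and Slc7a5 (-0.18, adjusted p = 0.0473) passed with all 4 libraries. The call of Esam was lost without icKO IP replicate 1 (adjusted p = 0.0756) and with the length offset (0.101). That of Slc7a5 was lost without control IP replicate 1 (0.109), control IP replicate 2 (0.118) or icKO IP replicate 2 (0.408), and under 3 other settings.

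The members that rose in the icKO IP were Slco1c1, Slco1a4 and Egfl7. Slco1c1 had 20.6 and 17.1 CPM in icKO IP and 14.1 and 11.3 CPM in control IP (log2 0.58 ± 0.12 (SE), adjusted p = 1.86e-04), and its call held without any one library. Slco1a4, also on chromosome 6, had 17.5 and 18.1 CPM in icKO IP and 13.5 and 14.6 CPM in control IP (log2 0.34 ± 0.11 (SE), adjusted p = 0.00966). Without control IP replicate 1 or icKO IP replicate 2 its adjusted p was 0.0694 or 0.0534. Egfl7 had 9.06 and 11.3 CPM in icKO IP and 8.16 and 7.81 CPM in control IP (log2 0.35 ± 0.15 (SE), adjusted p = 0.0445). That call was lost without control IP replicate 1 (0.0639), control IP replicate 2 (0.142) or icKO IP replicate 2 (0.444).

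Several endothelial genes far below input did not pass between the pull-downs, and Ly6c1, Sox18, Podxl and Foxq1, given further on, were among them. Of the others, Cldn5 was at -0.39 ± 0.30 (SE) (adjusted p = 0.301 in edgeR's test) and Cdh5 at -0.21 ± 0.22 (SE). Pecam1 was at -0.49 ± 0.24 (SE), Ly6a at -0.26 ± 0.54 (SE) and Erg at 0.061 ± 0.55 (SE). The values of Cldn5, Cdh5, Pecam1, Ly6a and Erg rest on 8 to 90 counts per IP library, and a p that misses the threshold does not show equal levels. Tek (-0.50, adjusted p = 0.0621), Cd93 (-0.69, 0.0783) and Pecam1 (0.0941) passed when libraries were scaled by their totals. Emcn (-0.39) passed at -0.88 without icKO IP replicate 1, and Ly6c1 (0.68) at 1.79 without control IP replicate 2. The remaining members without a call were Ocln (0.52), Podxl (0.026), Tie1 (-0.30), Ptprb (0.055), Robo4 (-0.10), Nos3 (0.059), Abcb1a (-0.053), Pltp (-0.065), Sox17 (-0.32), Sox18 (-0.69), Foxq1 (0.65), Lef1 (0.15) and Itm2a (-0.25).

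**Figure D3:**
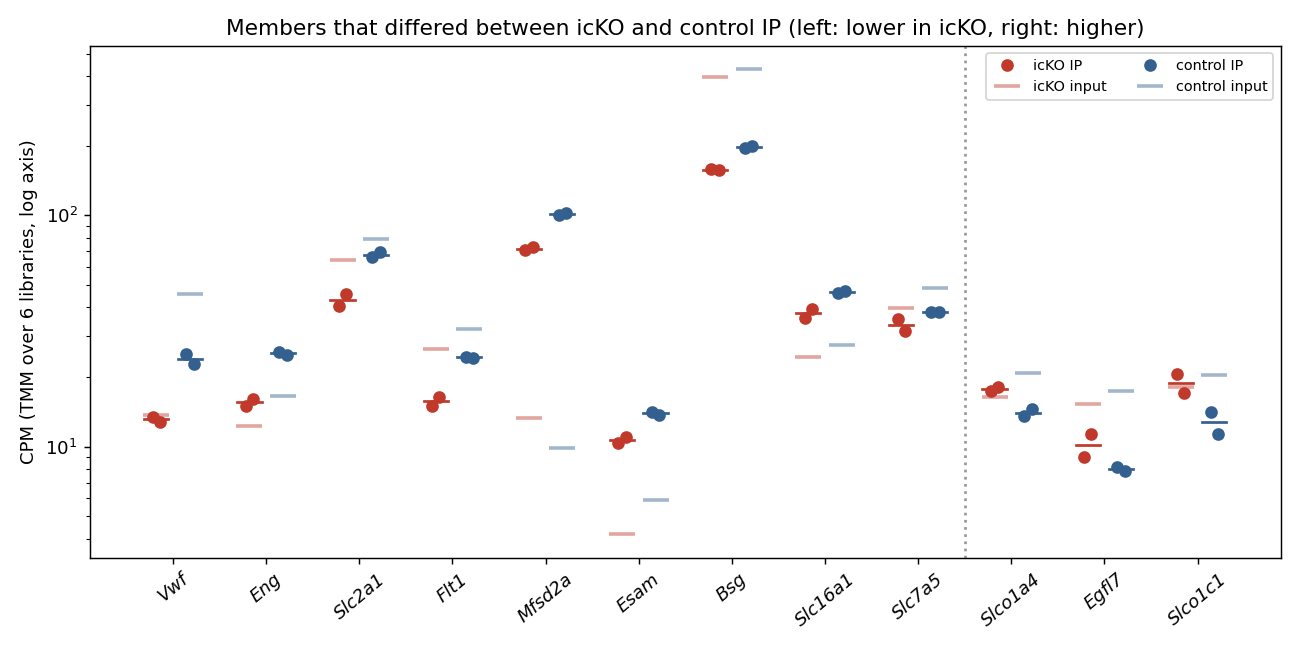
CPM on a log axis for the 12 members that passed between icKO IP and control IP; points are single IP libraries, thin lines their means and pale bars the single input of each genotype. The 9 genes left of the dotted line were lower in icKO IP and the 3 right of it higher.

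Genes outside the set that act in or on vessels were counted from 3 lists. These lists are not limited to genes that endothelium alone makes, and the third holds ligands that act on vessels. Of 40 genes of vessel transcription and signalling 36 were tested against input, of which 14 fell and 9 rose (median log2 -0.35), beside 34.2% of all genes in each direction. The largest rises were those of Gja4, the connexin-37 gene of arterial vessels (3.02), and of the receptor gene Notch1 (2.67), and the largest fall that of the sphingosine phosphate receptor gene S1pr1 (-2.44), which astrocytes also make. Of 24 tested genes of barrier transport, junctions and leakage 11 fell and 10 rose (-0.25), with Cav1, the caveolin gene, at 2.90 and Lrg1, a secreted glycoprotein gene, at -2.11. Of 23 ligands of vessels and genes of the Wnt receptor side 4 fell and 12 rose (0.42). There the Wnt co-receptor gene Lrp5 (1.75) and the Wnt feedback gene Nkd1 (1.60) rose and Pdgfb, which endothelium uses to recruit pericytes, fell (-1.46).

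In icKO IP against control IP, 13 of 34 genes of the first list were lower and 3 higher, 4 of 22 of the second lower and 4 higher, and 12 of 23 of the third lower and 0 higher, beside 25.2% of all genes lower and 22.1% higher. Gja4 had 6.75 and 5.64 CPM in icKO IP and 12.6 and 14.5 CPM in control IP (log2 -1.12), Ramp2, a co-receptor gene of adrenomedullin signalling, was at -0.74 and Ushbp1 at 1.24. Cav1 had 27.7 and 26.5 CPM in icKO IP and 41.5 and 42.8 CPM in control IP (-0.64), while the iron exporter gene Slc40a1 was at 0.71 and Lrp8, a receptor of reelin, at 0.46. Nkd1 had 48.8 and 46.2 CPM in icKO IP and 93.4 and 92.9 CPM in control IP (-0.97), Ndp, the gene of the ligand norrin, was at -0.68 and its co-receptor gene Tspan12 at -0.68. In the inputs, where the endothelial set had a median of -0.30, the 3 lists had medians of -0.096, -0.080 and 0.10, with 10 of 36, 6 of 24 and 1 of 23 genes lower past the fold limit.

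**Figure D4:**
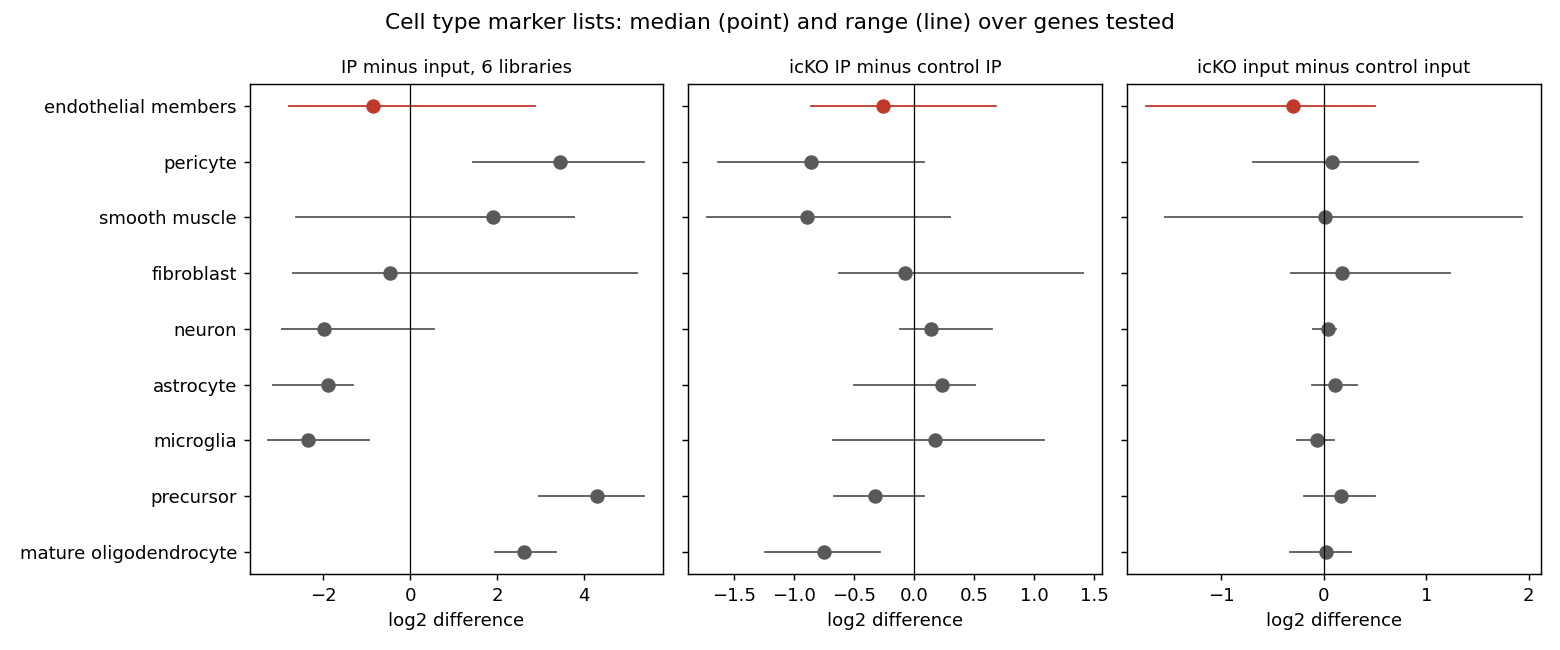
Median (point) and range (line) of log2 differences over the tested genes of the endothelial set and of 8 cell type lists, for IP minus input, icKO IP minus control IP and icKO input minus control input. The endothelial median is -0.85, -0.26 and -0.30 in the 3 panels, while the pericyte median is 3.44, -0.86 and 0.080.

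Some of these counts may hold reads of other genes, since the library kit keeps strand but the strand setting of the counting is not given. Of words of 50 bases in the longest transcript, 65.7% for Foxq1, 23.6% for Sox17 and 14.3% for Nos3 also occur in transcripts of another gene on the opposite strand, and 14.2% for Pltp occur in those of its neighbour Ctsa, also on the opposite strand. Ly6c1 shares 31.7% with Ly6c2, which had 0 to 2 counts in every library, and Abcb1a shares 15.5% with Abcb1b, which had 148 and 132 counts in icKO IP, 61 in icKO input, 147 and 165 in control IP and 96 in control input. Vwf, Cldn5, Cdh5, Pecam1, Mfsd2a, Esam and Slc16a1 share 0 such words with any other gene of the annotation.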

How the data were processed

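The authors deposited raw read counts per gene symbol for 6 libraries, without normalization. Tools named in the submitters' processing notes are Trimmomatic 0.39 (trimming) and STAR 2.7.10b (alignment), with the build mm10, after a stranded total RNA kit per the labels' protocols. Which program counted the reads, with which strand setting and with what use of molecular identifiers, is not given there. Of 24421 genes 10 lacked a value in both inputs and were left out. Titles gave the groups and the replicate numbers; one title reads cKO and was taken as icKO from its genotype label. IP libraries are named biological replicates, but whether their pools held different animals is not said, so p-values measure the spread between these libraries alone, which may be technical. Counts of an IP pair differed by a chi-square of 2.13 (icKO) and 2.19 (control) per degree of freedom, above sampling noise, so both libraries of a pair were counted.

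Counts were tested with edgeR 4.0.16 in R 4.3.3 (TMM, filterByExpr, quasi-likelihood F test, two-sided, Benjamini-Hochberg adjusted p under 0.05 over all genes tested). The IP genotypes were compared in a fit of 4 libraries (common biological coefficient of variation 3.01%, 2 residual degrees of freedom). Its median prior degrees of freedom were 29.7, so the variance behind each p-value came largely from a trend over all genes. IP and input were compared over 6 libraries with genotype as a term. The genotypes' depletion was compared in a 4-group fit in which the lone inputs take the spread of the IP pairs. Fold changes are edgeR log2 values, and standard errors are the log2 value over the root of F. The inputs were not tested against each other. Their log2 ratios used a prior count of 2 and called a gene past 0.32 in either direction, and printed ratios are of CPM with exact conditional binomial 95% intervals, which cover counting error only. The steps were tested on simulated counts. Gene lengths came from GENCODE M21. DESeq2 1.42.0, other scalings and filters and left-out libraries were tried. Members, lists and tests were chosen with earlier results of these data known. All members are named, and from each other list at most the 3 largest changes past the threshold in a comparison. The lowest and highest input ratios on the 3 vessel lists, which were not tested, are named as well.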

Additional observations from a re-analysis of the deposited data

Results flagged for a closer look

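For 7 of the 36 genes the genotype change in the pull-down differed from that in the input by the interaction test of edgeR's quasi-likelihood fit, where 23.6% of all genes did. The values are log2 changes in IP minus those in input: 0.87 for Vwf, 0.74 for Slco1c1, 0.69 for Slco1a4, 0.40 for Ptprb, -0.23 for Bsg, -0.35 for Slc2a1 and -0.93 for Mfsd2a. Vwf was lower in icKO in both fractions, by less in IP (-0.86) than in input (-1.73). Mfsd2a was lower in icKO IP (-0.49) and higher in icKO input (0.43). Each value rests on 1 input library per genotype. In DESeq2 the calls of Vwf, Mfsd2a and Bsg were kept, Ptprb, Slc2a1 and Slco1c1 did not pass (adjusted p = 0.216, 0.132 and 0.110), and Slco1a4 had no adjusted p.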

How the results depend on the processing

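No called member changed sign under any setting run. For IP against input over both genotypes, the counts of members lower (21 to 27) and higher (4 to 5) stayed within 1.5 times of 25 and 4. The fits without an input, which are among these settings, in effect repeat the comparison within the other genotype. Between the IP groups, the members higher in icKO were 3, and 1 to 3 when single libraries were left out (1 when either control IP replicate 1 or icKO IP replicate 2 was absent); the members lower were 9, and 8 to 9. They were 12 with library totals and 7 with the length offset, an alternative added after the data were seen. In DESeq2 the difference between genotype changes called 1 member higher (4 in edgeR), and over all genes 1072 lower and 633 higher (2222 and 1541). Members too low for its filter had no adjusted p there. At 1.5-fold, 8 members were lower and 0 higher in icKO input, beside 792 and 866 of all genes (16, 2, 1673 and 1764 at the main limit). Library totals moved the median of all genes by -0.11 (log2) in icKO IP against icKO input and by less than 0.1 elsewhere. The replicate numbers carry no stated pairing, and deviations of same-numbered IP libraries correlated at -0.011; with the replicate block 9 members were lower and 3 higher, and over all genes 3876 and 3401. Depth limits Icam2, Erg, Ly6a, Ly6c1, Sox18 and Foxq1, which had 4 to 30 counts in IP libraries.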

Other observations

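Of the genes outside the set on the 3 lists, those with the lowest ratios of icKO to control input were chosen after their values were seen. Marveld2, the tricellulin gene of tight junctions, was at 0.243 CPM in icKO input and 0.772 CPM in control input. Its ratio was 0.315 (95% interval 0.0908 to 0.889), on 5 counts in icKO input and 17 in control input. Cav1 was at 2.82 CPM in icKO input and 6.68 CPM in control input (0.422 (95% interval 0.306 to 0.576)). Lrg1, a secreted glycoprotein of venous endothelium, was at 0.875 CPM in icKO input and 2.09 CPM in control input (0.419 (95% interval 0.229 to 0.736)). The highest ratios were those of Bmx, Angpt2 and Ushbp1, whose intervals all included 1. Each input is 1 library.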
